A study of Arabidopsis thaliana with 12 samples.

Results

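The 21-nt and 22-nt reads that map to structural RNAs of Arabidopsis thaliana seedlings are described here, for the classes tRNA, rRNA, snRNA and snoRNA. The classes were taken by name from a table of 14 feature classes measured at 2 lengths, so that 4 classes at 2 lengths gave 8 of 28 class values, each with a value in all 12 libraries. Small RNA was sequenced from whole seedlings, 10 days old, of the wild type Col-0 or of dcl4-2, a mutant of the gene for DICER-LIKE 4. They were grown either on MS medium or on MS medium lacking nitrogen (MS-N), so that each genotype was combined with each medium, in 4 groups of 3 biological replicates. The mutant is 1 allele, and no complemented or second mutant line was analysed here. Values are reads scaled to the size of the library (rpm), given as mean ± SD with n = 3 unless said otherwise.

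tRNAs carry amino acids to the ribosome, and rRNAs form its core. snRNAs are the RNA subunits of the spliceosome, which removes introns from messenger RNA precursors, and snoRNAs guide the modification and cleavage of rRNA in the nucleolus. All are cut from longer precursors and all break down into fragments, tRNAs also by RNase T2 family nucleases, and such fragments enter small RNA libraries beside the products of Dicer-like enzymes. DICER-LIKE 4 processes double-stranded precursors to 21-nt siRNAs, and DICER-LIKE 2 makes 22-nt siRNAs from overlapping substrates. A read of 21 or 22 nt from a structural RNA is therefore a measure of fragments of that length, not of the amount of the intact RNA.

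The RefSeq annotation of TAIR10.1 lists 684 tRNA loci with a median length of 73 nt and 14 rRNA loci with a median of 1491 nt. It also lists 82 snRNA loci with a median of 153 nt and 287 snoRNA loci with a median of 92 nt. Of the tRNA loci 37 are chloroplast and 22 mitochondrial, and of the rRNA loci 7 are chloroplast and 3 mitochondrial, whereas all snRNA and snoRNA loci in this annotation are nuclear. On the transcribed strand TGATGA occurred in 49.8% of snoRNA loci, in 6.10% of snRNA loci and in 0.146% of tRNA loci. It occurred in 42.9% of the 14 rRNA loci, whose greater length makes that share not comparable with the others. The class table gives reads per class and not per locus, so the genes printed here are examples from the tRNA, rRNA and snoRNA classes, and no read was assigned to any of them. Sequences are RefSeq, from TAIR10.1, and read 5′ to 3′ on the transcribed strand. The tRNA example is a gene for tRNA-Gln at chr1:111890-111961 on the minus strand, with its annotated anticodon in capitals, and the rRNA example is the 5.8S ribosomal RNA at chr3:14199753-14199916 on the plus strand. The snoRNA examples are U60.1F at chr5:21295736-21295809 and U60.2F at chr4:13075563-13075635, both on the plus strand, with the TGATGA of the C box and the CTGA of the D box, where the proteins of these particles bind, in capitals. They are shown as a pair because both lie in introns of genes for fibrillarin, the methyltransferase that works with C/D box snoRNAs, which are taken up again with the gene tables.
tRNA-Gln: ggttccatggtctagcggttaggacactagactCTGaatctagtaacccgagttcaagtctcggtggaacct
5.8S rRNA: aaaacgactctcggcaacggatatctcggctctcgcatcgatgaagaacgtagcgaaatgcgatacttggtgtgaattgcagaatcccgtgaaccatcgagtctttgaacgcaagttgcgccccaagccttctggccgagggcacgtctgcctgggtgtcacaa
U60.1F: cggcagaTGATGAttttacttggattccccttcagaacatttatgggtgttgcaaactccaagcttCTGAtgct
U60.2F: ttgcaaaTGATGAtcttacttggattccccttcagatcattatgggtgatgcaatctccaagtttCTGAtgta

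The snRNA and snoRNA classes are transcribed from promoters with different short elements, and both classes rise on MS-N in the results that follow, so the windows upstream of both were searched. In the 300 bases before the annotated start, searched on both strands, the letters CCCACATCG, the core of the plant upstream sequence element of snRNA genes, occurred at 29 of 82 snRNA loci (35.4%). They occurred at 1.05% of snoRNA loci and at 0.171% of 27562 protein-coding genes. The letters AAACCCTA, the telo box found before many genes of the translation machinery, occurred at 86 of 287 snoRNA loci (30.0%), at 3.66% of snRNA loci and at 5.19% of protein-coding genes. These shares describe the annotation, and neither motif was related to reads. The window printed as an example holds the 100 bases before the snoRNA locus AT3G27865, chr3:10328410-10328509, on the plus strand, with AAACCCTA in capitals.
AT3G27865 upstream: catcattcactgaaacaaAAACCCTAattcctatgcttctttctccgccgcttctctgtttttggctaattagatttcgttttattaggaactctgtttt

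The libraries held 4515437 to 7270637 reads, as worked out from the steps between the rpm values, with 28 values in each library. Those of dcl4-2 on MS-N were the smallest, at 4515437, 5411632 and 5044394 reads, while every other library held at least 5887818. Depth thus went with this group, and its part in the group differences was not tested. Behind a single value of a library stood 13591 to 31096 reads for tRNA, 5697 to 14126 for rRNA, 1073 to 5590 for snoRNA and only 183 to 901 for snRNA. The genotype labels were checked on the 21-nt reads of tasiRNA loci, whose siRNAs DICER-LIKE 4 makes. These stood at 26379 rpm in Col-0 against 1128 rpm in dcl4-2 on MS, and at 45790 against 2675 rpm on MS-N, with no overlap on either medium. For snoRNA and for 21-nt rRNA, replicate 1 of dcl4-2 on MS stood apart from replicates 2 and 3 of its group, and results that change without it are given both ways.

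The structural RNA classes were a small part of each library, and the share of snRNA and snoRNA fragments within them was larger on MS-N. Together the 8 values made up 0.810 to 1.55% of the reads of a library. In Col-0 their sum was 12124 ± 939 rpm (MS) and 8705 ± 526 rpm (MS-N). In dcl4-2 it was 10258 ± 298 rpm (MS) and 14768 ± 653 rpm (MS-N), and the 3 mutant libraries without nitrogen held the highest sums of all. Fragments of tRNA and rRNA made up 95.5 ± 0.275% of the sum in Col-0 on MS and 84.4 ± 0.988% on MS-N. The remainder, snRNA and snoRNA, came to 4.53% (MS) and 15.6% (MS-N) in Col-0 and to 4.74% (MS) and 15.0% (MS-N) in dcl4-2. In both genotypes each MS-N library, at 14.3% or more, thus stood above each MS library, at 6.11% or less. As a share of the 21-nt and 22-nt reads in all classes other than tasiRNA, the sum was 4.63% (MS) and 2.37% (MS-N) for Col-0. For dcl4-2 it was 3.83% (MS) and 3.57% (MS-N). In whole seedlings, a change in the cells that make a fragment and a change in the fragment per cell cannot be told apart.

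**Figure D1:**
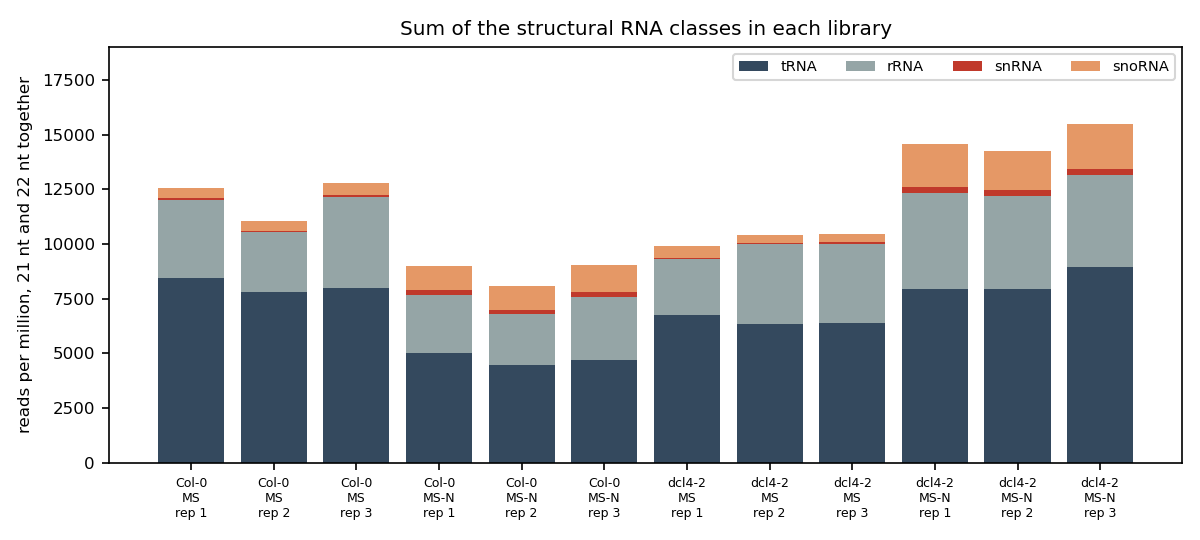
Stacked bars give the rpm of tRNA, rRNA, snRNA and snoRNA, with 21 nt and 22 nt added together, in each of the 12 libraries. The sums are lowest in Col-0 on MS-N, at 8098 to 9034 rpm, and highest in dcl4-2 on MS-N, at 14234 to 15496 rpm, and the snoRNA part is wider in the MS-N libraries of both genotypes.

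Within each genotype the medium moved most of the 8 values, but not in the same way in Col-0 and dcl4-2. In Col-0, 7 of 8 values passed an adjusted p of 0.05 between MS-N and MS, 4 higher (snRNA and snoRNA at both lengths) and 3 lower (tRNA at both lengths and 22-nt rRNA). Of all 28 class values 82.1% passed in that comparison. In dcl4-2, 6 of 8 passed and all 6 were higher in rpm (snRNA and snoRNA at both lengths, 21-nt tRNA and 22-nt rRNA), again against 82.1% of all 28. Between genotypes, 2 of 8 passed on MS, both tRNA values, which were lower in dcl4-2, where 64.3% of all 28 passed. On MS-N 7 of 8 passed and all 7 were higher in dcl4-2, where 85.7% of all 28 passed. These shares leave the count of 2 on MS below the background of the table and the other counts near it. The median difference of the 8 values on the log2 scale was 0.44 in Col-0 and 1.24 in dcl4-2 for medium, beside 0.58 and 0.78 over all 28. For genotype it was -0.19 on MS and 0.72 on MS-N, beside -0.25 and 0.38 over all 28. These tests used limma on log2 rpm with 1 fit over the 4 groups and Benjamini-Hochberg adjustment over the 28 values, and an exact permutation test of 3 against 3 libraries cannot go below p = 0.1.

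**Figure D2:**
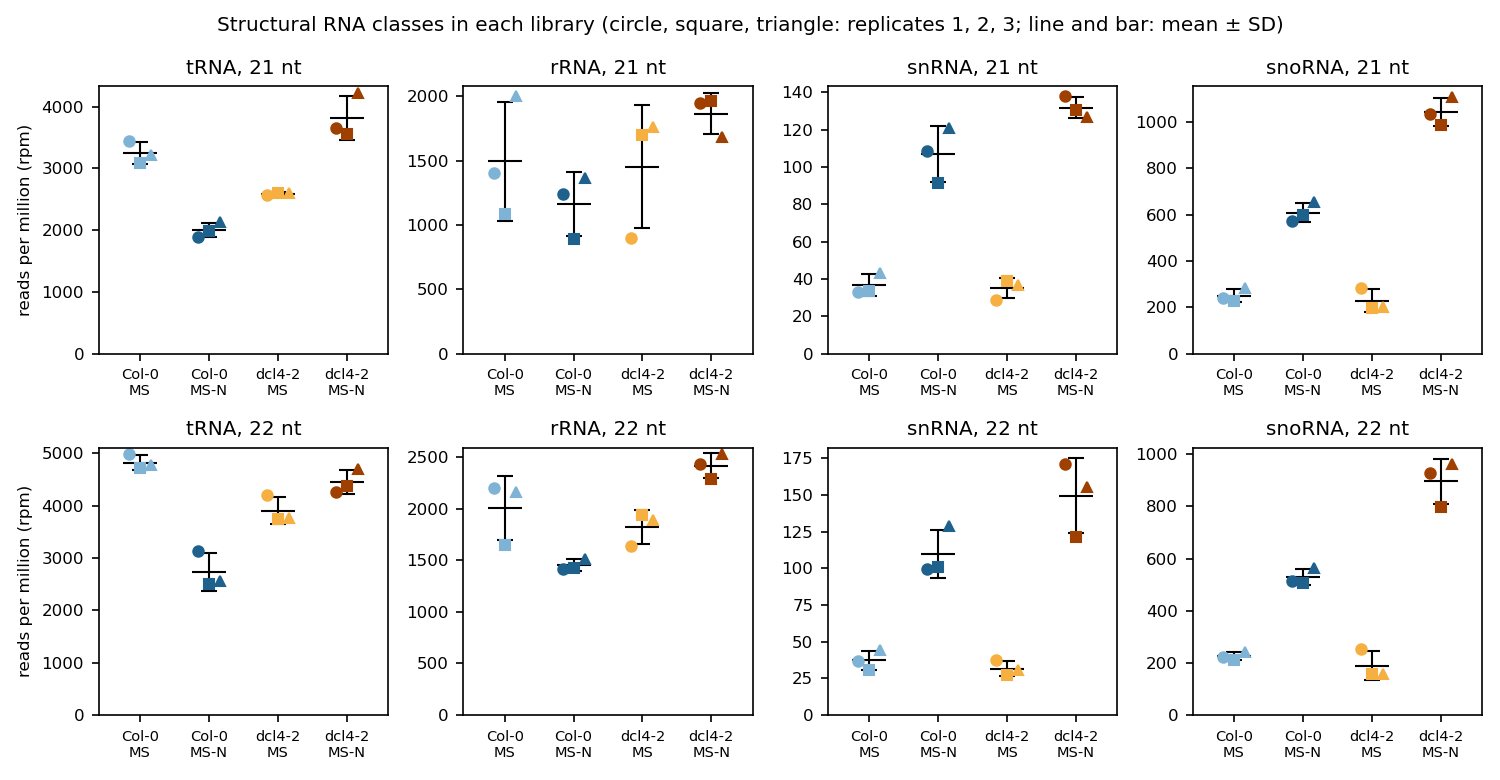
Each panel gives the rpm of 1 class at 1 length in the 12 libraries by group, with replicates 1, 2 and 3 as circle, square and triangle and the mean ± SD as line and bar. Fragments of tRNA are lowest in Col-0 on MS-N, rRNA libraries of 1 group spread widely at 21 nt, and snRNA and snoRNA separate the MS-N from the MS libraries.

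Fragments of tRNA fell on MS-N in Col-0, and on the rpm scale those of 21 nt rose in dcl4-2, a rise that turned to a fall when microRNA reads were set to a common sum. At 21 nt the libraries of Col-0 held 3441, 3090 and 3218 rpm on MS and 1884, 1994 and 2124 rpm on MS-N. Those of dcl4-2 held 2565, 2607 and 2605 rpm on MS and 3655, 3560 and 4219 rpm on MS-N. No library of 1 group overlapped another group, and on MS-N the groups took the ends of the order, Col-0 the lowest and dcl4-2 the highest, with Col-0 above dcl4-2 on MS between them. The mean of Col-0 was 1.62-fold lower on MS-N (log2 difference -0.70 ± 0.08 SE, limma adjusted p = 6.2e-06). That of dcl4-2 was 1.47-fold higher on MS-N (log2 difference 0.55 ± 0.08 SE, limma adjusted p = 2.7e-05). On MS-N the mutant thus held 1.91-fold more 21-nt tRNA fragments than Col-0 (limma adjusted p = 6.0e-07), while on MS it held 1.25-fold less (limma adjusted p = 0.0038).

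At 22 nt the libraries of Col-0 held 4981, 4716 and 4771 rpm of tRNA fragments on MS and 3141, 2495 and 2559 rpm on MS-N. Those of dcl4-2 held 4202, 3747 and 3763 rpm on MS and 4267, 4383 and 4709 rpm on MS-N. Col-0 on MS-N was again the lowest group, and the dcl4-2 groups lay close together, with 4202 rpm in the highest MS and 4267 rpm in the lowest MS-N library. The fall in Col-0 was 1.77-fold (log2 difference -0.83 ± 0.09 SE, limma adjusted p = 6.2e-06). In dcl4-2 the MS-N mean was 1.14 times the MS mean, which did not pass (log2 difference 0.19 ± 0.09 SE, limma adjusted p = 0.068). That comparison did pass without Col-0 on MS-N replicate 1 (limma adjusted p = 0.023), without dcl4-2 on MS replicate 1 (0.027) and with only the 2 groups in the fit (0.049). It turned when libraries were scaled to reads other than microRNA and tasiRNA (-0.15, limma adjusted p = 0.26), and with microRNA reads set to a common sum it was a fall that passed (-0.72, limma adjusted p = 0.00010). Between genotypes, dcl4-2 was 1.24-fold lower on MS (limma adjusted p = 0.0097) and 1.63-fold higher on MS-N (limma adjusted p = 3.3e-05). The fall in Col-0 on MS-N passed under both other scalings tried, but the lower tRNA of dcl4-2 on MS did not pass when libraries were scaled to reads other than microRNA and tasiRNA (adjusted p of 0.59 at 21 nt and 0.68 at 22 nt). The rise of 21-nt tRNA in dcl4-2 did not pass with that scaling (log2 difference 0.21, limma adjusted p = 0.097), and with microRNA reads set to a common sum it was a fall (-0.36, limma adjusted p = 0.0094), while the fall in Col-0 was then larger (-1.46 at 21 nt and -1.58 at 22 nt).

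Fragments of rRNA at 22 nt fell on MS-N in Col-0 and, on the rpm scale, rose in dcl4-2, and those at 21 nt varied too much among replicates for most comparisons. At 22 nt the libraries of Col-0 held 2202, 1651 and 2167 rpm on MS and 1419, 1425 and 1518 rpm on MS-N. Those of dcl4-2 held 1640, 1943 and 1890 rpm on MS and 2435, 2287 and 2528 rpm on MS-N. All MS-N libraries of Col-0 lay below all other libraries, and all MS-N libraries of dcl4-2 lay above them. The means were 1.38-fold lower on MS-N in Col-0 (log2 difference -0.45 ± 0.11 SE, limma adjusted p = 0.0021) and 1.32-fold higher in dcl4-2 (0.41 ± 0.11 SE, limma adjusted p = 0.0042). The rise in dcl4-2 did not pass when libraries were scaled to reads other than microRNA and tasiRNA (0.07, limma adjusted p = 0.64) and turned to a fall with microRNA reads set to a common sum (-0.50, limma adjusted p = 0.018). On MS-N dcl4-2 held 1.66-fold more than Col-0 (limma adjusted p = 9.6e-05). On MS the means were 2007 and 1824 rpm with overlapping libraries, and the difference (limma adjusted p = 0.29) passed only without Col-0 on MS replicate 2 (0.016) and with microRNA reads set to a common sum (0.016).

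At 21 nt rRNA fragments stood at 1401, 1085 and 1999 rpm in Col-0 on MS and at 1244, 888 and 1364 rpm on MS-N. In dcl4-2 they stood at 901, 1699 and 1760 rpm on MS and at 1949, 1965 and 1685 rpm on MS-N. The coefficient of variation was 31.1% and 33.0% in the MS groups of Col-0 and dcl4-2, and their libraries overlapped. The MS-N libraries of the genotypes did not overlap, and dcl4-2 was 1.60-fold higher there (log2 difference 0.70 ± 0.28 SE, limma adjusted p = 0.032). This call was lost without Col-0 on MS-N replicate 1 or 2 (adjusted p of 0.054 and 0.12) and without dcl4-2 on MS-N replicate 1 or 2 (0.084 and 0.081), and with microRNA reads set to a common sum (log2 difference 0.17, adjusted p = 0.75). Neither effect of medium passed at this length, with log2 differences of -0.34 ± 0.28 SE in Col-0 and 0.42 ± 0.28 SE in dcl4-2. The fall in Col-0 passed when libraries were scaled to reads other than microRNA and tasiRNA (-0.64, limma adjusted p = 0.037) and with microRNA reads set to a common sum (-1.09, limma adjusted p = 0.019), while the value of dcl4-2 turned with the latter (-0.49, limma adjusted p = 0.22).

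The tRNA and rRNA classes can hold organellar RNAs, since the annotation has chloroplast and mitochondrial members of both, and small RNA from chloroplast loci also moved with medium. Summed over 88 chloroplast loci, the authors' deposited table gives group means at 22 nt of 25927 (MS) and 3865 (MS-N) for Col-0, and of 27504 (MS) and 9452 (MS-N) for dcl4-2. At 21 nt the sums were 22297 and 6553 in Col-0 and 24247 and 6775 in dcl4-2. The chloroplast sums were thus lower on MS-N in both genotypes. The sum over 122 mitochondrial loci at 22 nt was 2133 (MS) and 1902 (MS-N) for Col-0, and 2167 (MS) and 4183 (MS-N) for dcl4-2. At 21 nt the mitochondrial sum was higher on MS-N in both genotypes, at 1906 and 2252 in Col-0 and at 1613 and 2726 in dcl4-2. These values are the authors' means of normalized reads, not rpm, and have no spread. No locus with an annotated type in the authors' deposited table is a tRNA or rRNA, but whether the summed loci have an annotated type was not checked. The sums were not split by type of RNA, so they do not show what organellar tRNA and rRNA fragments did. The part of organellar RNA in the class values was not tested.

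Fragments of snRNA rose on MS-N in both genotypes. At 21 nt the libraries of Col-0 held 32.8, 33.7 and 43.3 rpm on MS and 109, 91.4 and 121 rpm on MS-N. Those of dcl4-2 held 29.0, 39.0 and 37.0 rpm on MS and 138, 131 and 127 rpm on MS-N. Every MS-N library exceeded every MS library, by 2.92-fold in the means of Col-0 (log2 difference 1.55 ± 0.14 SE, limma adjusted p = 3.6e-06) and by 3.77-fold in dcl4-2 (1.92 ± 0.14 SE, limma adjusted p = 1.9e-07). At 22 nt the libraries of Col-0 held 37.0, 30.7 and 44.0 rpm on MS and 99.4, 101 and 129 rpm on MS-N. Those of dcl4-2 held 37.2, 27.3 and 30.4 rpm on MS and 171, 122 and 156 rpm on MS-N. The folds were 2.95 in Col-0 (limma adjusted p = 6.2e-06) and 4.73 in dcl4-2 (limma adjusted p = 2.1e-07), again with no overlap between media. These rises passed without any single library and under both other scalings. With microRNA reads set to a common sum they were smaller, at 0.79 and 0.81 on the log2 scale in Col-0 and 1.01 and 1.33 in dcl4-2 at 21 and 22 nt.

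Between genotypes 1 of the 4 snRNA differences passed, that of 22 nt on MS-N. On MS the means were 36.6 and 35.0 rpm at 21 nt and 37.2 and 31.6 rpm at 22 nt in Col-0 and dcl4-2, and the libraries overlapped at both lengths. With microRNA reads set to a common sum 22-nt snRNA was lower in dcl4-2 on MS (log2 difference -0.61, limma adjusted p = 0.025). On MS-N dcl4-2 was 1.36 times Col-0 at 22 nt (log2 difference 0.44 ± 0.17 SE, limma adjusted p = 0.032), although the libraries overlapped. This call was lost without Col-0 on MS-N replicate 1 or 2 (adjusted p of 0.098 and 0.097), without dcl4-2 on MS-N replicate 1 or 3 (0.12 and 0.083), and with microRNA reads set to a common sum (log2 difference -0.09, adjusted p = 0.78). At 21 nt the means were 107 and 132 rpm, with no overlap, and the difference did not pass (limma adjusted p = 0.056). It passed without Col-0 on MS replicate 3 (0.034), Col-0 on MS-N replicate 3 (0.029) or dcl4-2 on MS replicate 1 (0.020), with the replicate block (0.049), with only the 2 groups in the fit (0.0051), with a pseudocount of 100 rpm (0.028) and scaled to reads other than microRNA and tasiRNA (0.0074).

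Fragments of snoRNA rose on MS-N in both genotypes, and the rise was larger in dcl4-2. At 21 nt the libraries of Col-0 held 240, 227 and 282 rpm on MS and 574, 597 and 653 rpm on MS-N. Those of dcl4-2 held 285, 195 and 201 rpm on MS and 1032, 987 and 1108 rpm on MS-N. The 3 groups of libraries on MS-N in dcl4-2, on MS-N in Col-0 and on MS did not overlap, while the genotypes overlapped on MS. The mean rose 2.44-fold in Col-0 (log2 difference 1.29 ± 0.14 SE, limma adjusted p = 6.2e-06) and 4.59-fold in dcl4-2 (2.22 ± 0.14 SE, limma adjusted p = 5.3e-08).

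At 22 nt the libraries of Col-0 held 224, 213 and 243 rpm of snoRNA fragments on MS and 515, 507 and 565 rpm on MS-N. Those of dcl4-2 held 255, 157 and 158 rpm on MS and 927, 799 and 964 rpm on MS-N. The order of the groups was that of 21 nt, and the folds were 2.34 in Col-0 (limma adjusted p = 2.5e-05) and 4.72 in dcl4-2 (limma adjusted p = 1.8e-07). Each rise passed without any single library and under both other scalings, and with microRNA reads set to a common sum was smaller, at 0.53 and 0.47 on the log2 scale in Col-0 and 1.31 and 1.36 in dcl4-2 at 21 and 22 nt. On MS-N dcl4-2 held 1.71-fold more 21-nt and 1.70-fold more 22-nt snoRNA fragments than Col-0 (limma adjusted p of 0.00024 and 0.0010). With microRNA reads set to a common sum these genotype differences were 0.25 and 0.23 on the log2 scale and did not pass (adjusted p of 0.22 and 0.32). Those of 22-nt rRNA (0.20, limma adjusted p = 0.36) and 22-nt tRNA (0.18, limma adjusted p = 0.16) did not pass either with that scaling. On MS the genotypes did not differ past the threshold (limma adjusted p of 0.31 and 0.14). With microRNA reads set to a common sum snoRNA fragments were lower in dcl4-2 at both lengths (log2 differences of -0.53 and -0.67, limma adjusted p of 0.0095 and 0.0048), whereas with libraries scaled to reads other than microRNA and tasiRNA the 21-nt difference turned (0.07, limma adjusted p = 0.84). Without dcl4-2 on MS replicate 1, whose values of 285 and 255 rpm were the highest of the MS libraries, snoRNA fragments were lower in dcl4-2 at both lengths (log2 differences of -0.33 and -0.52, limma adjusted p of 0.0076 and 0.00037). The number of structural RNA values that passed on MS then was 4.

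**Figure D3:**
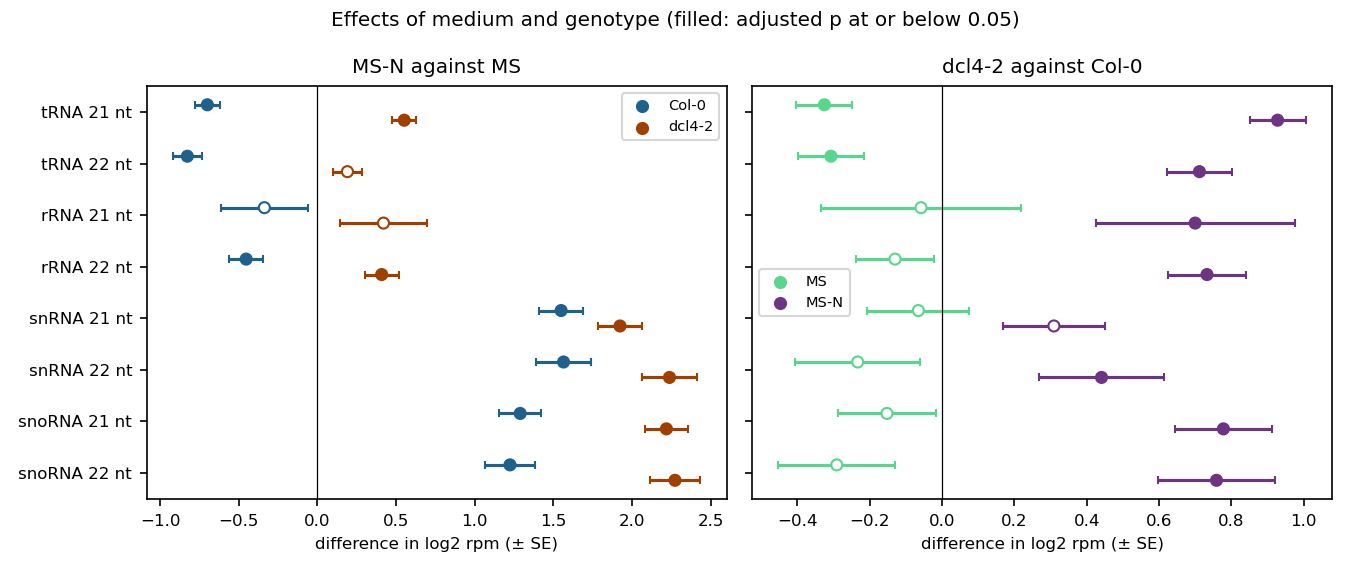
Points give the difference in log2 rpm with its SE for each of the 8 values, on the left for MS-N against MS in each genotype and on the right for dcl4-2 against Col-0 on each medium. Filled points passed an adjusted p of 0.05. Differences by medium lie, on the rpm scale, on opposite sides of 0 in Col-0 and dcl4-2 for tRNA and rRNA and on the same side for snRNA and snoRNA.

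Taken over both media, the genotypes did not differ past the threshold in any of the 8 values, and in rpm the differences on MS and MS-N ran in opposite directions in all 8. The exact permutation test, with genotype permuted within medium over 400 arrangements, called 0 of 8, where 46.4% of all 28 passed, and 0 of 8 had an unadjusted p under 0.05, the lowest being 0.085. With differences of opposite sign on the media, swapping the labels on 1 medium alone gives a larger mean difference than that observed. For such values this test can hardly give a small p. Its count of 0 therefore does not show that the genotypes were alike. By limma in place of the permutation test 4 of the 8 passed, tRNA at both lengths, 22-nt rRNA and 21-nt snoRNA. The share of all 28 that passed by limma was not set beside this count, and the 46.4% belongs to the permutation test. The effect of medium over both genotypes passed for 4 of 8, snRNA and snoRNA at both lengths, where 75.0% of all 28 passed. Their log2 differences were 1.75 for snoRNA at both lengths and, for snRNA, 1.74 at 21 nt and a higher value at 22 nt. Each had an exact permutation p of 0.005, the smallest these arrangements can give, and an adjusted p of 0.0078, with all 6 MS-N libraries above all 6 MS libraries. For tRNA and rRNA the effect over both genotypes did not pass, with log2 differences between -0.32 and 0.04. In rpm these effects also ran in opposite directions in the genotypes, so the same limit of the permutation test applies. By limma 22-nt tRNA also passed (-0.32, adjusted p = 0.00056), which made 5 of 8, again without the share of all 28 by limma beside it. The 22-nt tRNA value passed by the permutation test when libraries were scaled to reads other than microRNA and tasiRNA (-0.64, adjusted p = 0.023). With microRNA reads set to a common sum all 4 tRNA and rRNA values passed as falls, with log2 differences of -0.91 and -1.15 for tRNA and -0.79 and -0.86 for rRNA at 21 and 22 nt.

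The effect of medium differed between the genotypes for 6 of 8 values, all with the more positive effect in dcl4-2, where 53.6% of all 28 class values passed this test of the interaction. The interaction of 21-nt tRNA, at 1.25 ± 0.11 SE on the log2 scale (limma adjusted p = 2.4e-06), was the highest of the 28. That of 22-nt tRNA was 1.02 ± 0.13 SE (limma adjusted p = 5.7e-05). The interactions of snoRNA were 0.93 ± 0.19 SE at 21 nt and 1.05 ± 0.23 SE at 22 nt (limma adjusted p of 0.0017 and 0.0023), and that of 22-nt rRNA was 0.86 ± 0.15 SE (limma adjusted p = 0.00062). These 5 passed without any single library and under both other scalings. That of 22-nt snRNA was 0.67 ± 0.24 SE (limma adjusted p = 0.039). It passed in 4 of the 12 fits that left out 1 library, those without Col-0 on MS replicate 2, Col-0 on MS-N replicate 3, dcl4-2 on MS replicate 1 or dcl4-2 on MS-N replicate 2, and under neither other scaling (adjusted p of 0.10 and 0.18). For 21-nt rRNA and 21-nt snRNA the interactions were 0.76 ± 0.39 SE and 0.37 ± 0.20 SE and did not pass (limma adjusted p of 0.13 for both). The median interaction of the 8 values was 0.90, beside 0.41 over all 28.

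**Figure D4:**
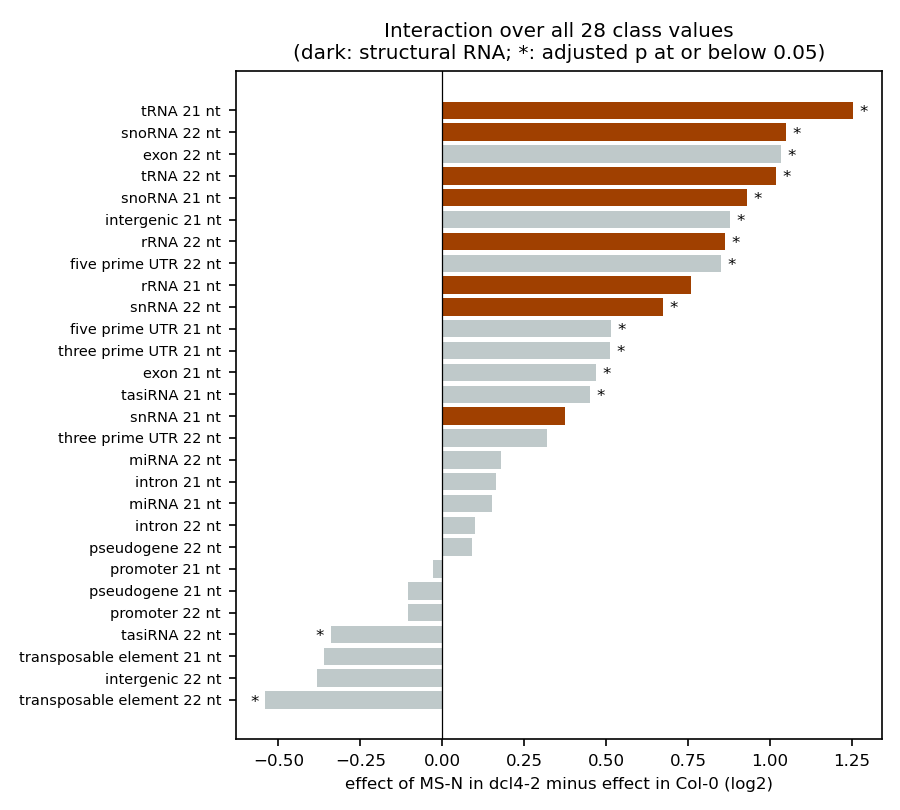
Bars give, for all 28 class values in falling order, the effect of MS-N in dcl4-2 minus that in Col-0 on the log2 scale, with the structural RNA values dark and a star at an adjusted p of 0.05 or less. The 21-nt tRNA value stands first at 1.25, and all 8 structural RNA values lie among the 15 highest.

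The balance of the lengths did not pass the stated tests in any of the 4 classes. The 22-nt share, the percentage of 22-nt reads among the 21-nt and 22-nt reads of a class, averaged 57.8% for tRNA, 56.7% for rRNA, 50.3% for snRNA and 46.4% for snoRNA over the 12 libraries. By this mean snoRNA ranked 4th from the lowest of the 14 classes and tRNA 9th. The share of snoRNA was the steadiest of the 4, with all libraries between 43.9 and 48.4%. That of rRNA ran from 51.8 to 64.5%, and libraries of 1 group differed by up to 12.8 percentage points, more than any difference between the group means of this class. A single tRNA share had an exact 95% binomial interval 0.844 to 1.10 percentage points wide, and a single snRNA share one 4.74 to 10.0 points wide, for counting error only.

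For tRNA the share was 59.1, 60.4 and 59.7% in the MS libraries of Col-0 and 62.5, 55.6 and 54.6% in its MS-N libraries. It was 62.1, 59.0 and 59.1% in the MS libraries of dcl4-2 and 53.9, 55.2 and 52.7% in its MS-N libraries. The media did not overlap in dcl4-2, and in Col-0 replicate 1 on MS-N lay above all MS libraries while the other two lay below them. Over both genotypes the log2 ratio of 22-nt to 21-nt reads was lower by 0.24 on MS-N, with an exact permutation p of 0.02 that did not pass after adjustment over the 14 classes (0.093). It passed without Col-0 on MS-N replicate 1 (adjusted p = 0.023) and by limma (adjusted p = 0.037). None of the 4 classes passed for the effect of medium, of genotype or for the interaction by the stated tests. Of all 14 classes 14.3% passed for medium, 28.6% for genotype and 35.7% for the interaction. At an unadjusted p under 0.05 the tRNA share by medium was the only one of these 12 tests. Without dcl4-2 on MS replicate 1, the interaction of the snRNA share passed (0.55 on the log2 scale, limma adjusted p = 0.033).

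**Figure D5:**
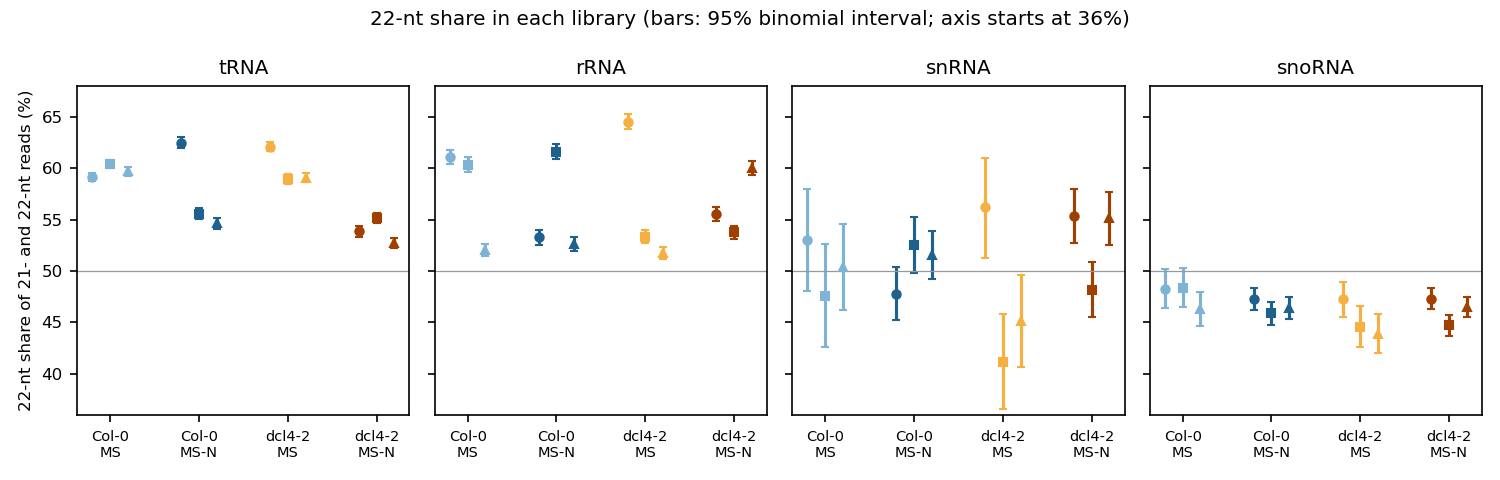
Points give the 22-nt share of each class in each library by group, with exact 95% binomial intervals and replicates 1, 2 and 3 as circle, square and triangle. The tRNA shares of dcl4-2 on MS-N, at 52.7 to 55.2%, lie below its MS shares, at 59.0 to 62.1%, and the rRNA shares spread as widely within groups as between them.

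The gene tables, which give the authors' group means over 32420 loci at each length, hold no locus annotated as tRNA, rRNA, snRNA or snoRNA among the 31722 loci with an annotated type. In them a list of 20 RNA processing genes was followed, with RDR1, RDR6 and SGS3 of the silencing machinery among them. The values are counts of small RNAs from these genes and not of their messenger RNA. In the authors' deposited table, 2 of the 20 were higher at 22 nt on MS-N in dcl4-2 and 0 lower, among 10 with an adjusted p, where 15.2% of all loci with one passed. They were NUC1, nucleolin of the nucleolus, with means of 4.48 on MS and 20.2 on MS-N in the authors' deposited table (log2 ratio 2.17, the authors' adjusted p = 0.00099), and FIB1, a fibrillarin, with means of 1.38 and 10.1 (log2 ratio 2.87, the authors' adjusted p = 0.015). At 21 nt NUC1 alone was called in the same comparison (means of 4.81 and 21.8, log2 ratio 2.18, adjusted p = 0.0090 in the authors' deposited table), of 6 with an adjusted p, where 9.47% of all loci passed. The authors' deposited table called 0 of the list in Col-0 by medium, where 8.89% of loci at 21 nt and 11.6% at 22 nt passed, and 0 and 1 of the list had an unadjusted p under 0.05. It also called 0 of the list between genotypes on MS-N, where 12.2 and 13.8% passed, and 1 of the list had an unadjusted p under 0.05 at each length.

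FIB1 and its relative FIB2 each hold a snoRNA gene in an intron on the same strand, U60.1F and U60.2F, whose sequences are printed with the class examples. They are the only 2 of the 20 genes with a structural RNA locus inside them, and 70 of the 287 snoRNA loci lie inside a protein-coding gene on its strand. In the authors' deposited table the 22-nt means of FIB1 were 3.24 (MS) and 5.30 (MS-N) for Col-0, and 1.38 (MS) and 10.1 (MS-N) for dcl4-2. Those of FIB2 in the authors' deposited table were listed at 0 in both MS groups, and at 1.68 (Col-0) and 4.63 (dcl4-2) on MS-N (the authors' adjusted p = 0.054 for MS-N against MS in dcl4-2). The FIB1 means had the order of the snoRNA class, highest in dcl4-2 on MS-N and lowest in dcl4-2 on MS. That order is not particular to a gene that holds a snoRNA. NUC1, without a structural RNA locus inside it, had it too at 22 nt. Its means in the authors' deposited table were 7.07 (MS) and 16.4 (MS-N) for Col-0, and 4.48 (MS) and 20.2 (MS-N) for dcl4-2. All these means are low and have no spread. Whether reads counted for FIB1 and FIB2 come from exons or from the intronic snoRNAs was not tested.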

How the data were processed

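Small RNA of 12 seedling libraries was measured by sequencing. Per the submitters' processing notes, reads were handled with Bowtie 1.2.2 and SAMtools 1.9 on the build TAIR10, and the rule for assigning reads to classes was not given in the sources used here. The class table deposited by the authors holds rpm, although its header says TPM, since each library's values are whole multiples of 1 step. Reads per value are the rpm divided by this step, taken from the smallest library total that made all 28 values whole within 0.001. A multiple of that total would do the same, so the read numbers and the share intervals rest on the smallest one. The gene tables of the authors hold a signal per locus, the group mean, with the authors' log2 ratios, and the authors' p-value columns stand beside them. From the rpm, log2 values were compared without a filter or pseudocount. Genotype and medium over both strata were tested by two-sided exact permutation in R 4.3.3. Single contrasts and interactions were tested with limma 3.58.1 in R 4.3.3, and p-values were adjusted by Benjamini-Hochberg over 28 values or 14 classes, with a threshold of 0.05. Shares have exact Clopper-Pearson intervals of 95% (SciPy 1.17.1). The tests were checked on simulated data.

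Same-numbered libraries of different groups had correlated deviations from -0.519 to 0.779, over 0.1 in 7 of 18 pairs, and they were not treated as paired. Between Col-0 on MS and Col-0 on MS-N the correlation was -0.379, 0.723 and 0.779 for replicates 1, 2 and 3. Pairing is therefore not excluded. The 4 classes, the 20 RNA processing genes and the tests were chosen with earlier results of these data known. Up to 6 genes of the list were to be named, those with the lowest authors' adjusted p up to 0.05, and FIB2 was added after its values were seen because it holds U60.2F. Alternatives were other scalings, pseudocounts of 1 and 100 rpm, linear values, a minimum of 1000 rpm, other fits and leaving out each library.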

Additional observations from a re-analysis of the deposited data

Results flagged for a closer look

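The effect of nitrogen-free medium differed between dcl4-2 and Col-0 by a limma test of the interaction for 6 of the 8 structural RNA values. Of all 28 class values 53.6% passed this test. On the log2 scale, as the effect in dcl4-2 minus that in Col-0, the differences were 1.25 for tRNA and 0.93 for snoRNA at 21 nt. At 22 nt they were 1.02 for tRNA, 1.05 for snoRNA, 0.86 for rRNA and 0.67 for snRNA. The snRNA interaction passed in only 4 of the 12 fits that left out 1 library, and under neither other scaling. On the rpm scale the group means of tRNA and 22-nt rRNA moved in opposite directions in the genotypes, which was not so with microRNA reads set to a common sum. Those of snRNA and snoRNA moved in the same direction. Groups of 3 libraries are too small for a test of single libraries that stand apart.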

How the results depend on the processing

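Of the 22 alternatives, those that left out a library, set another pseudocount or scaling or added the replicate block were run on all 68 single results, and the others on the 24 to 44 that they could apply to. The scale set on each library decides the direction of some differences between groups. Scaling to reads other than microRNA and tasiRNA moved every value of a library alike, by a mean log2 shift of 0.063 (MS) and -0.24 (MS-N) for Col-0 libraries, and of 0.29 (MS) and -0.055 (MS-N) for dcl4-2 libraries. Setting microRNA reads to a common sum moved them by 0.69 and -0.072 for Col-0, and by 0.31 and -0.60 for dcl4-2. The scaling without microRNA and tasiRNA left out those 2 classes by name only. The exon class stayed in it, with a 22-nt share of 14.4 to 68.2% over the 12 libraries, beside 3.63 to 84.3% for tasiRNA. Whether exon reads include those of tasiRNA loci, so that this scale itself follows genotype, was not tested. Few reads limit snRNA.

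Of the 8 structural values, scaling without microRNA and tasiRNA left 0 called between genotypes on MS. The microRNA scaling left 6 called on MS, 1 on MS-N and 8 for medium over both genotypes. By limma in place of permutation 4 passed for genotype over both media, 5 for medium over both genotypes and 1 share by medium. A minimum of 1000 rpm kept only tRNA and rRNA in the test and left 4 called between genotypes on MS-N, 3 interactions, 0 for medium over both genotypes, 3 for medium in Col-0 and 2 in dcl4-2. Leaving out single libraries gave 2 to 4 called on MS, 0 to 1 shares by medium and 0 to 1 share interactions. These counts were not set beside the share of all class values that passed under the same alternative. Whether the changes in the counts are particular to the structural RNA classes was therefore not tested.

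Reversed without microRNA and tasiRNA were, on the log2 scale, dcl4-2 against Col-0 on MS for 21-nt rRNA (0.17), 22-nt rRNA (0.095), 21-nt snoRNA (0.072) and 21-nt snRNA (0.16), medium over both genotypes for 21-nt rRNA (-0.28) and medium in dcl4-2 for 22-nt tRNA (-0.15). With the microRNA scaling, genotype over both media turned for rRNA (-0.13 at 21 nt and -0.15 at 22 nt), snoRNA (-0.14 and -0.22), snRNA (-0.33 and -0.35) and tRNA (-0.15 and -0.25). Medium in dcl4-2 turned for rRNA (-0.49 and -0.50) and tRNA (-0.36 and -0.72), genotype on MS-N for snRNA (-0.22 and -0.088) and medium over both genotypes for 21-nt rRNA (-0.79). Medium for 22-nt rRNA was 19.8 rpm on linear values, and the snRNA share by genotype was 0.020 with a pseudocount of 100 rpm. The cause was not tested, beyond the shifts given.

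Leaving out single libraries also turned results that had not passed, with log2 ranges of -0.27 to 0.26 for 21-nt rRNA and -0.15 to 0.065 for 21-nt snRNA between genotypes on MS, and for medium of -0.12 to 0.16 for 21-nt and -0.090 to 0.014 for 22-nt rRNA. For shares they were -0.14 to 0.066 (rRNA, genotype), -0.037 to 0.34 (rRNA, interaction), -0.15 to 0.055 (rRNA, medium), -0.024 to 0.024 (snoRNA, medium) and -0.14 to 0.075 (snRNA, genotype). The main tests did not pair same-numbered libraries. The replicate block changed 1 of the 68 single results, 21-nt snRNA between genotypes on MS-N (0.31 on the log2 scale, limma adjusted p = 0.049), and left 6 interactions called. Count-based tests were planned and not run, because the deposited values are rpm and the read numbers were worked out from only 28 values per library.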
